A study of Homo sapiens with 12 samples.

Results

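The genes described here are the chains of the integrin and laminin families in G401 cells, taken by symbol as every protein-coding integrin alpha chain, integrin beta chain and laminin alpha, beta or gamma chain. They were 38 of 57820 gene identifiers and comprised 18 integrin alpha chains, 8 integrin beta chains and 12 laminin chains. G401 is a human malignant rhabdoid tumour line without working SMARCB1, which is part of the SWI/SNF (BAF) complexes that remodel chromatin, and the labels give the genotype SMARCB1(-/-) for all libraries. Per the labels, doxycycline induced either GFP or SMARCB1, and each state was treated for 24 hours with DMSO or with dBRD9-A, a degrader of BRD9, which belongs to the BAF complex called non-canonical. The 4 groups were therefore GFP with DMSO, GFP with dBRD9-A, SMARCB1 with DMSO and SMARCB1 with dBRD9-A, with 3 replicates each. G401 is a single line, so the groups stand for that line only. The vector behind the inducible proteins, the length of induction and the dose of dBRD9-A are not given in the sources used here. Nothing in the labels says that the replicates were separate cultures, so a p-value measures the spread between these libraries, which may be technical.

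The depth was 34.97 to 58.54 megacounts (units of 1e6 gene counts) per library, and levels are given as counts per megacount after TMM scaling (CPM). SMARCB1 had 0 to 2 counts in the 6 GFP libraries and 53033 to 110893 in the 6 SMARCB1 libraries, as labelled. Its level in SMARCB1 libraries was 1810 to 1910 CPM with DMSO and lower, 1280 to 1330 CPM, with dBRD9-A. What this difference adds to the comparisons that use the SMARCB1 libraries with dBRD9-A was not tested. The rhabdoid markers VIM, KRT8, KRT18, SALL4 and LIN28B were present in all 12 libraries. Of 6 leukocyte markers, 5 were at or under 3 counts in every library and PTPRC and CD3E were at 0, while CD68, which many cell types express, had 163 to 199 CPM in GFP libraries and 57.4 to 67.2 CPM in SMARCB1 libraries. The 4 platelet markers PF4, PPBP, GP9 and GP1BA were at 0 throughout. The 3 endothelial markers CDH5, VWF and KDR summed to 0 to 0.121 CPM in GFP libraries and 0.608 to 1.07 CPM in SMARCB1 libraries, mostly VWF, with KDR at 0 throughout. A further planned endothelial marker, PECAM1, was matched to no identifier and is not in these sums. The 5 kidney epithelial markers summed to 0.374 to 0.829 CPM and 0.395 to 1.1 CPM: EPCAM had 0.327 to 0.76 CPM in GFP and 0 to 0.0698 CPM in SMARCB1 libraries, and CDH1 0 to 0.071 CPM and 0.326 to 0.942 CPM. The part of these markers in the results on SMARCB1 was not tested.

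Integrins are cell surface receptors made of an alpha and a beta chain that couple the extracellular matrix to the actin cytoskeleton. ITGB1 is the beta chain shared by most matrix receptors, ITGAV is the shared alpha chain of receptors for fibronectin, vitronectin and latent TGF-beta, and ITGA3, ITGA6 and ITGA7 form laminin receptors. Laminins are secreted as trimers of an alpha, a beta and a gamma chain and form the sheet to which cells attach in basement membranes. The alpha chain carries most of the receptor binding sites, and the alpha, beta and gamma chains a cell makes together limit which laminins it can deposit.

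With SMARCB1, the leading laminin alpha and beta chains changed places, while the main gamma chain stayed nearly level. In DMSO, LAMB1 rose 271-fold and LAMA4 fell 145-fold, ITGB6 fell 24.0-fold, and ITGA6, ITGB5 and ITGA3 rose 5.11-fold to 7.15-fold. Of the 38 genes, 25 passed the filter on low counts, and 18 of those passed on the level in both cell states. Of these 18, 10 were higher and 6 lower with SMARCB1 in DMSO at an adjusted p under 0.05 (edgeR's quasi-likelihood test, Benjamini-Hochberg over 15750 genes). The background is wide: 65% of all genes tested passed this threshold, 33.5% as higher and 31.6% as lower. Among the 13897 genes that passed in both states, 66.3% were called. The median size of the log2 fold change, sign aside, was 1.76 for the 18 genes and 0.25 for these 13897. The 7 other genes, ITGAX, ITGB2, ITGB3, LAMA1, LAMA2, LAMB3 and LAMB4, passed the filter only through the SMARCB1 libraries. A higher call thus followed from how they entered, and the text gives them by their counts with no test. For the 16 called genes among the 18, the replicates of the compared groups did not overlap. The same held for LAMC3, which was not called, and the share of all genes without overlap was not counted. ITGA7 and LAMC3 were not called. RNA came from whole cultures, so a change in the number of cells that express a gene and a change in its RNA per cell cannot be told apart.

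**Figure D1:**
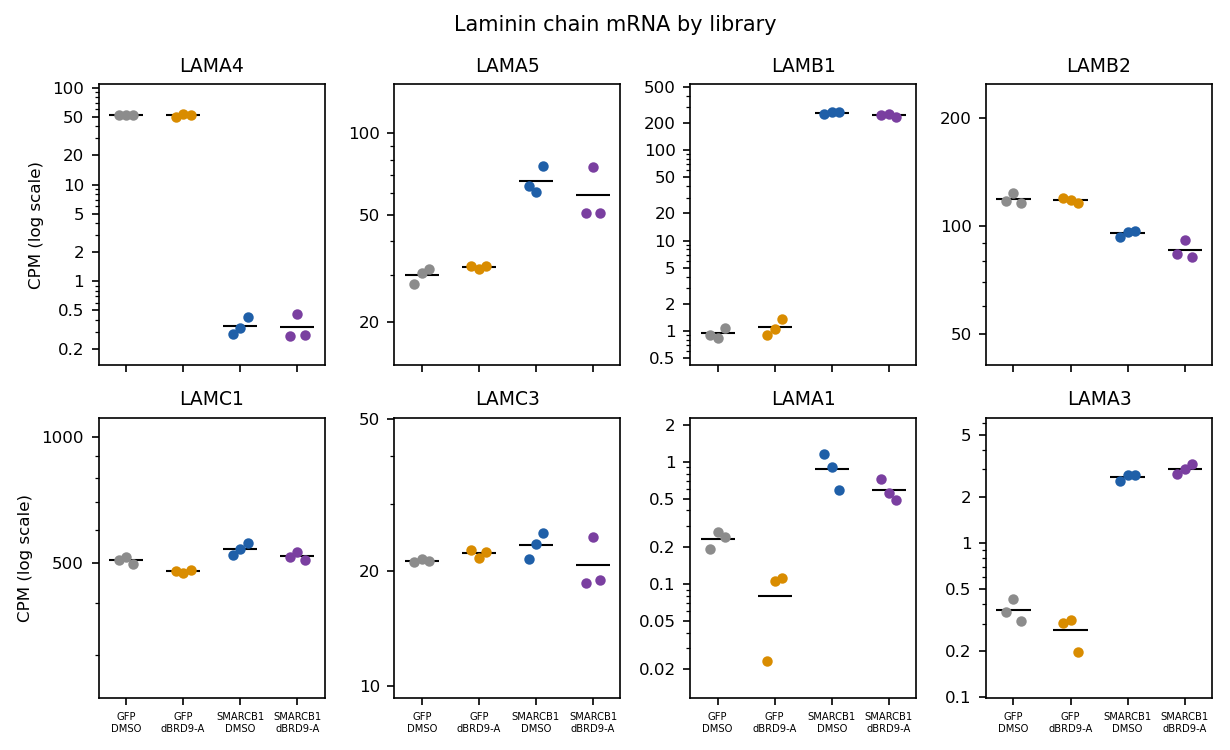
Level of 8 laminin chains in each library, in CPM on a log axis that differs between panels, with 1 point per library and a bar at the mean of 3 replicates. LAMB1 lies near 1 CPM in GFP libraries and above 235 CPM in SMARCB1 libraries, LAMA4 goes the other way, and LAMC1 and LAMC3 stay within a narrow range.

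LAMB1, the beta chain of the most widespread laminins, gave the largest change of the set. It had 0.91, 0.85 and 1.09 CPM in the GFP libraries with DMSO and 254, 262 and 267 CPM in the SMARCB1 libraries with DMSO. The counts behind these levels were 35 to 63 and 9691 to 15506, so the low level was above the counting floor of 3. With dBRD9-A it had 0.91, 1.05 and 1.36 CPM in GFP cells and 243, 250 and 236 CPM in SMARCB1 cells. All 6 SMARCB1 libraries thus lay far above all 6 GFP libraries. The log2 fold change was 8.08 (SE 0.06, adjusted p = 4.7e-23 by edgeR) in DMSO and 7.79 (SE 0.07, adjusted p = 1.5e-22) with dBRD9-A. LAMB1 overlaps DLD on the opposite strand in GENCODE 29, and the use of strand in counting is not given in the sources used here.

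LAMA4, the alpha chain of laminins in vessel and muscle basement membranes, changed in the opposite direction. It had 52.6, 52.6 and 52.0 CPM in the GFP libraries with DMSO, a spread of 0.392 CPM (SD, n = 3). The SMARCB1 libraries with DMSO had 0.29, 0.33 and 0.43 CPM, from 11 to 25 counts. With dBRD9-A the levels were 50.3, 54.2 and 52.7 CPM in GFP cells and 0.27, 0.46 and 0.28 CPM in SMARCB1 cells. The groups did not overlap under either treatment, and the log2 fold change was -7.18 (SE 0.09, adjusted p = 2.5e-20 by edgeR) in DMSO and -7.22 (SE 0.09) with dBRD9-A.

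The sequence just before the start is shown for LAMB1, LAMA4 and ITGB6, which had the largest changes with SMARCB1 in DMSO among the genes that passed the filter in both states, so that a reader can see how unlike they are. Each is the 250 bases before the annotated start, read 5′ to 3′ on the gene's strand, from RefSeq's GRCh38.p14. LAMB1 lies at chr7:108003162-108003411, LAMA4 at chr6:112254568-112254817 and ITGB6 at chr2:160200273-160200522, all on the minus strand, and capitals mark matches to the GC box.
LAMB1: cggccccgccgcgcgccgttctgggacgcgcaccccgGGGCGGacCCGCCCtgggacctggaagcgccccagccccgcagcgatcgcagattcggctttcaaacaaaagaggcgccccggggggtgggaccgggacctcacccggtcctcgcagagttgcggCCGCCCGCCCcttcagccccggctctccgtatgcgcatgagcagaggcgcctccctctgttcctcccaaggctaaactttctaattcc
LAMA4: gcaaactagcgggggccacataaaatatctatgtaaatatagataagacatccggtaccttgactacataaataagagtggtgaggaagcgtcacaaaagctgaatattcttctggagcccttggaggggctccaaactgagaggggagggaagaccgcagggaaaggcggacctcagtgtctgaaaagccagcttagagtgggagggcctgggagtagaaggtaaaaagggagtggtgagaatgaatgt
ITGB6: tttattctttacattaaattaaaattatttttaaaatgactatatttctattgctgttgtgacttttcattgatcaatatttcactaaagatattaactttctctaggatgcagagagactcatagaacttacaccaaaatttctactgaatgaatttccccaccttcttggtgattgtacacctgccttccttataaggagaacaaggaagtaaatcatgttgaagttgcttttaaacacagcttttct
The LAMB1 window had 70.4% G or C and 28 CpG dinucleotides, the LAMA4 window 48.4% and 5, and the ITGB6 window 30.0% and 0. The median over the 35116 RefSeq windows of this length was 58.0% and 11 CpG. Each window was searched on both strands for the GC box (GGGCGG), the TATA box (TATAAA), an AP-1 motif (TGANTCA) and a TEAD motif (GGAATG), none of which contains another. LAMB1 held the GC box 4 times, beginning 213, 205, 88 and 84 bases before the start, the last of which overlap each other. The LAMA4 and ITGB6 windows held none of these letters. Over all windows, 42.6% held the GC box, 10.7% the TATA box, 6.57% the AP-1 motif and 11.9% the TEAD motif. A match describes the letters only, and 26 of the 38 genes had an entry in the promoter table. Those without an entry include LAMA1, LAMC3, ITGA3, ITGA7, ITGA9, ITGAD, ITGAL, ITGAX, ITGB2, ITGB3 and ITGB4.

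LAMA5, the alpha chain of laminins in most epithelial basement membranes, was higher with SMARCB1. It had 27.8, 30.5 and 31.5 CPM in GFP libraries with DMSO and 64.0, 60.5 and 75.9 CPM in SMARCB1 libraries with DMSO. With dBRD9-A it had 32.4, 31.5 and 32.2 CPM in GFP cells and 50.7, 75.3 and 50.7 CPM in SMARCB1 cells. The log2 fold change was 1.16 (SE 0.12, adjusted p = 1.24e-07 by edgeR) in DMSO and 0.89 (SE 0.12, adjusted p = 5.1e-06) with dBRD9-A. The highest SMARCB1 value of each treatment came from the deepest library of its group, with 58.4 and 53.9 megacounts. LAMC3 was highest in the same libraries, at 25.2 and 24.5 CPM, and the part of depth in this was not tested. LAMA5 overlaps ADRM1 and LAMA5-AS1 on the opposite strand.

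LAMA3, an alpha chain known from the attachment of skin epithelium, was also higher but at a low level. It had 0.36, 0.44 and 0.31 CPM in GFP libraries with DMSO, from 18 to 20 counts. The SMARCB1 libraries with DMSO had 2.54, 2.77 and 2.77 CPM. In log2 terms LAMA3 rose by 2.89 (SE 0.17, adjusted p = 6.24e-11 by edgeR), and with dBRD9-A by 3.45 (SE 0.19), from 0.30, 0.32 and 0.20 CPM to 2.81, 3.04 and 3.26 CPM.

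LAMB2 and LAMC1 moved little. LAMB2, a beta chain known from the glomerulus and the neuromuscular junction, had 118, 124 and 116 CPM in GFP libraries with DMSO and 93.5, 96.4 and 97.2 CPM in SMARCB1 libraries with DMSO. Its log2 fold change was -0.32 (SE 0.04, adjusted p = 7.2e-07 by edgeR) in DMSO and -0.46 (SE 0.04) with dBRD9-A. LAMC1, the gamma chain of nearly all laminins, had 508, 515 and 497 CPM in GFP libraries with DMSO and 521, 540 and 558 CPM in SMARCB1 libraries with DMSO. Its log2 fold change of 0.09 (SE 0.03, adjusted p = 0.0101) was lost without replicate 3 of SMARCB1 with DMSO, where the adjusted p was 0.0654. With dBRD9-A it was 0.12 (SE 0.03, adjusted p = 0.00139), and -0.21 when libraries were scaled to the spike-in RNAs.

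LAMC3, a gamma chain of few tissues, had 21.1 to 21.5 CPM in GFP libraries and 21.6 to 25.2 CPM in SMARCB1 libraries, both with DMSO, and was not called (log2 fold change 0.15, SE 0.08, adjusted p = 0.121 by edgeR). LAMA1, LAMA2, LAMB3 and LAMB4 stayed low and passed the filter only through the SMARCB1 libraries. LAMA1, an alpha chain of the early embryo, had 11 to 14 counts in GFP libraries and 34 to 44 in SMARCB1 libraries with DMSO. With dBRD9-A it had 1 to 4 and 21 to 30 counts. LAMA2, the alpha chain of muscle laminins, went from 0 to 3 counts to 34 to 45 counts. LAMB3, a beta chain of epithelial laminins, went from 1 to 2 counts to 36 to 52 counts. LAMB4, the gene next to LAMB1 on the chromosome in RefSeq, went from 1 to 3 counts to 39 to 65 counts, which was 1.04 CPM on average beside 261 CPM for LAMB1.

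Set side by side per kilobase of exon, the laminin mix changed from LAMA4, LAMB2 and LAMC1 to LAMA5, LAMB1 and LAMC1 as the leading chains. LAMA4 made up 68.0% ± 1.53 (SD, n = 3) of the summed alpha chain level in GFP libraries with DMSO and 0.595% ± 0.0754 in SMARCB1 libraries with DMSO. LAMA5 went from 31.4% ± 1.49 to 92.8% ± 1.08. LAMB1 went from 0.666% ± 0.107 to 69.1% ± 0.151 of the beta chains, and LAMB2 from 99.3% ± 0.0931 to 30.1% ± 0.133. LAMC1 held 94.8% ± 0.142 and 95.4% ± 0.179 of the gamma chains. With the longest transcript as length in place of the union of exons, LAMA4 held 74.9% and 0.837% and LAMB1 0.776% and 72.4%, so the leading chains were the same.

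The sums per class behaved differently from the mix. The summed alpha chains were 6.66 ± 0.116 CPM per kilobase (SD, n = 3) in GFP libraries with DMSO and 5.03 ± 0.551 in SMARCB1 libraries with DMSO. The summed beta chains went from 17.5 ± 0.591 to 46.3 ± 1.09, and the summed gamma chains were 63.6 ± 1.07 and 67.3 ± 2.44. With dBRD9-A the SMARCB1 libraries had 4.47 ± 1.01, 42.7 ± 1.62 and 64.4 ± 1.75 for the alpha, beta and gamma chains. The alpha chains had the lowest sum and the gamma chains the highest in all 4 groups. These are RNA levels per length, and secreted trimers were not measured.

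**Figure D2:**
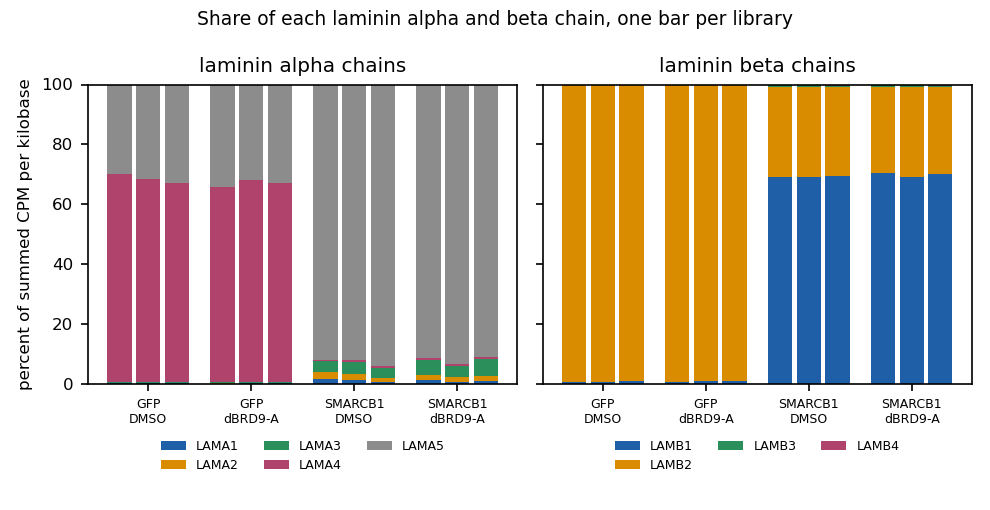
Share of each alpha and beta chain in the summed level of its class, in percent of CPM per kilobase of exon, with 1 stacked bar per library. LAMA4 fills 66.6% to 69.6% of the alpha bars of GFP cells with DMSO and under 1% of those of SMARCB1 cells, and LAMB1 fills about 69% of the beta bars of SMARCB1 cells.

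Among the integrins, the shared chains ITGB1 and ITGAV were by far the highest and moved little, while their rarer partners moved most. Per kilobase of exon, ITGB1 had 129 ± 3.74 CPM and ITGAV 94.4 ± 3.15 CPM in GFP libraries with DMSO (SD, n = 3), and the next chain, ITGA5, had 10.7 ± 0.405. ITGB6 followed with 3.34 ± 0.197, ITGAE with 2.2 ± 0.112, ITGB5 with 1.68 ± 0.103, ITGA6 with 1.28 ± 0.0638 and ITGA3 with 0.776 ± 0.0626. In SMARCB1 libraries with DMSO the order was ITGB1 at 154 ± 2.79, ITGAV at 84.2 ± 1.02, ITGA5 at 23.9 ± 0.406, ITGB5 at 10.6 ± 0.249, ITGA6 at 9.17 ± 0.128, ITGA3 at 3.95 ± 0.18 and ITGAE at 2.61 ± 0.209. At this length, no neighbours among these chains had overlapping ranges of mean ± SD. The order depends on the length used. With the longest transcript, ITGAE (3.8) stood above ITGB6 (3.35) in GFP libraries with DMSO, and ITGA6 (1.49) and ITGA3 (1.39) lay close together.

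**Figure D3:**
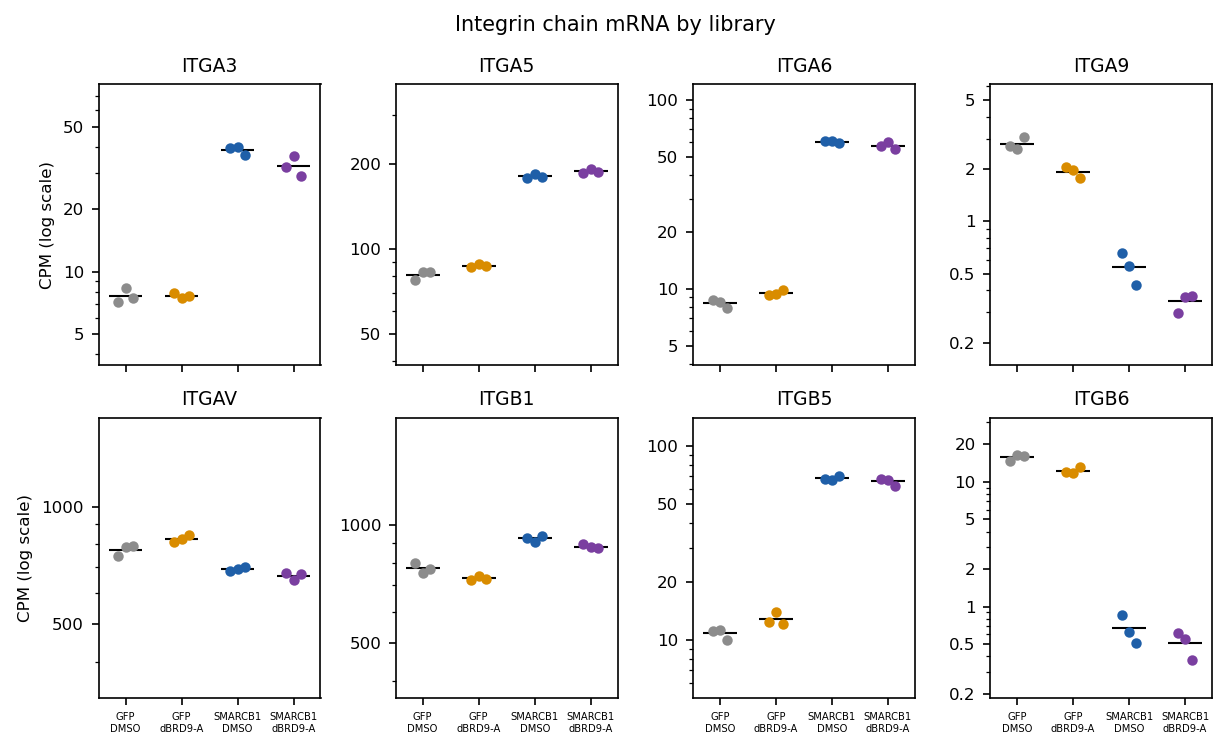
Level of 8 integrin chains in each library, in CPM on a log axis that differs between panels, with 1 point per library and a bar at the mean of 3 replicates. ITGA3, ITGA5, ITGA6 and ITGB5 are higher and ITGA9 and ITGB6 lower in all 6 SMARCB1 libraries, and ITGAV and ITGB1 span less than the other panels.

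Both expressed laminin-binding alpha chains with appreciable counts rose. ITGA6, a laminin receptor chain, had 8.70, 8.55 and 7.91 CPM in GFP libraries with DMSO and 60.3, 60.5 and 58.96 CPM in SMARCB1 libraries with DMSO. With dBRD9-A it had 9.30, 9.37 and 9.85 CPM in GFP cells and 57.2, 60.2 and 54.9 CPM in SMARCB1 cells. The log2 fold change was 2.84 (SE 0.05, adjusted p = 1.38e-18 by edgeR) in DMSO and 2.60 (SE 0.05) with dBRD9-A. ITGA3, the other one, had 7.10, 8.29 and 7.43 CPM in GFP libraries with DMSO and 39.5, 39.96 and 36.7 CPM in SMARCB1 libraries with DMSO. Its log2 fold change was 2.35 (SE 0.08, adjusted p = 1.14e-14) in DMSO, and 2.08 (SE 0.08) with dBRD9-A, where SMARCB1 cells had 31.8, 36.0 and 28.98 CPM. ITGA7, the third laminin receptor chain, stayed at 0.48 to 0.81 CPM over all GFP and SMARCB1 libraries with DMSO (log2 fold change 0.23, SE 0.27, adjusted p = 0.465). ITGB4, the hemidesmosome partner of ITGA6, had at most 16 counts in any library and was not tested.

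ITGA5, the alpha chain of the main fibronectin receptor, had 77.5, 83.1 and 82.5 CPM in GFP libraries with DMSO and 179, 185 and 180 CPM in SMARCB1 libraries with DMSO. The log2 fold change was 1.16 (SE 0.03, adjusted p = 5.39e-16 by edgeR) in DMSO and 1.11 (SE 0.03) with dBRD9-A. ITGA9, an alpha chain that binds tenascin-C and osteopontin, fell from 2.72, 2.62 and 3.08 CPM to 0.65, 0.55 and 0.43 CPM in DMSO. Its log2 fold change was -2.39 (SE 0.17, adjusted p = 8e-10) in DMSO and -2.47 (SE 0.19) with dBRD9-A, from 63 to 88 counts to 12 to 20 counts. ITGA9, ITGA6 and ITGB5 overlap antisense genes on the opposite strand.

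Among the partners of ITGAV, ITGB6 fell and ITGB5 rose. ITGB6, an epithelial chain that pairs only with ITGAV and helps to activate latent TGF-beta, had 14.6, 16.3 and 16.04 CPM in GFP libraries with DMSO and 0.86, 0.63 and 0.52 CPM in SMARCB1 libraries with DMSO. With dBRD9-A it had 11.99, 11.7 and 13.2 CPM in GFP cells and 0.62, 0.55 and 0.37 CPM in SMARCB1 cells. For ITGB6 the log2 fold change was -4.58 (SE 0.13, adjusted p = 1.81e-15 by edgeR) in DMSO and -4.56 (SE 0.14) with dBRD9-A. ITGB5, the vitronectin-binding partner, had 11.1, 11.3 and 10.1 CPM in GFP libraries with DMSO and 68.0, 66.9 and 70.1 CPM in SMARCB1 libraries with DMSO. For ITGB5 the log2 fold change was 2.66 (SE 0.05, adjusted p = 2.1e-17) in DMSO and 2.36 (SE 0.06) with dBRD9-A. As shares of the summed beta chains per kilobase, ITGB6 went from 2.5% ± 0.21 to 0.0867% ± 0.023 and ITGB5 from 1.26% ± 0.0866 to 6.43% ± 0.0597 (SD, n = 3). ITGB3, another vitronectin-binding partner, had 0, 4 and 4 counts in GFP libraries with DMSO and 91, 98 and 138 in SMARCB1 libraries with DMSO. It passed the filter only through the latter state. With dBRD9-A it had 0 to 1 counts in GFP cells and 100 to 150 in SMARCB1 cells. ITGB8, a further partner, was at 0 in all GFP libraries and had a highest level of 0.18 CPM in 1 SMARCB1 library.

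The shared chains changed by little, and their changes depended on the scaling. ITGAV had 745, 787 and 792 CPM in GFP libraries with DMSO and 683, 694 and 699 CPM in SMARCB1 libraries with DMSO, which gave a log2 value of -0.16 (SE 0.03, adjusted p = 7.6e-05 by edgeR). When libraries were scaled to the spike-in RNAs, which moved the median of all genes by 0.17 in this comparison, that value was 0 (adjusted p = 0.962). With dBRD9-A it was -0.31 (SE 0.03, adjusted p = 3.4e-08). ITGB1 had 796, 752 and 772 CPM in GFP libraries with DMSO and 927, 905 and 938 CPM in SMARCB1 libraries with DMSO, which gave 0.26 (SE 0.03, adjusted p = 1.32e-07). With dBRD9-A the log2 fold change of ITGB1 was 0.27 (SE 0.03, adjusted p = 7.5e-08), and -0.06 under spike-in scaling, which moved the median of all genes by -0.32 there. ITGAE, the chain that pairs with ITGB7 and binds E-cadherin, gave 0.25 (SE 0.06, adjusted p = 0.00122) in DMSO and 0.20 (SE 0.06, adjusted p = 0.00718) with dBRD9-A, and -0.12 under spike-in scaling in the latter.

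ITGAV held 85.9% ± 0.147 of the summed integrin alpha level per kilobase in GFP libraries with DMSO and 67.8% ± 0.498 in SMARCB1 libraries with DMSO (SD, n = 3). ITGA5 went from 9.74% ± 0.0669 to 19.2% ± 0.172, ITGA6 from 1.17% ± 0.09 to 7.38% ± 0.136 and ITGA3 from 0.706% ± 0.0439 to 3.18% ± 0.15. ITGB1 held 96.2% ± 0.255 and 93.1% ± 0.0248 of the beta level. The summed alpha level per kilobase was 110 ± 3.65 and 124 ± 1.32 CPM, and the summed beta level 134 ± 3.53 and 165 ± 3.02 CPM.

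ITGAX and ITGB2, chains of leukocyte receptors, had low counts and passed the filter only through the SMARCB1 libraries. ITGAX, the alpha chain of a receptor of myeloid cells, had 0 counts in all 6 GFP libraries and 14 to 23 counts in SMARCB1 libraries with DMSO, which was at least 6.69-fold higher against a floor of 3 counts per library. With dBRD9-A it was at least 4.7-fold higher, from 9 to 30 counts. Its beta chain, ITGB2, had 0 to 2 counts in GFP libraries and 6 to 12 in SMARCB1 libraries with DMSO. The pan-leukocyte gene PTPRC was at 0 in all 12 libraries. The 13 genes that did not pass the filter were ITGA1, ITGA2, ITGA4, ITGA8, ITGA10, ITGA11, ITGAM, ITGAL, ITGAD, ITGA2B, ITGB4, ITGB7 and ITGB8, and none had more than 16 counts in a library. They include the collagen receptor chains ITGA1, ITGA2, ITGA10 and ITGA11, so no collagen-binding alpha chain was at a level that could be tested.

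**Figure D4:**
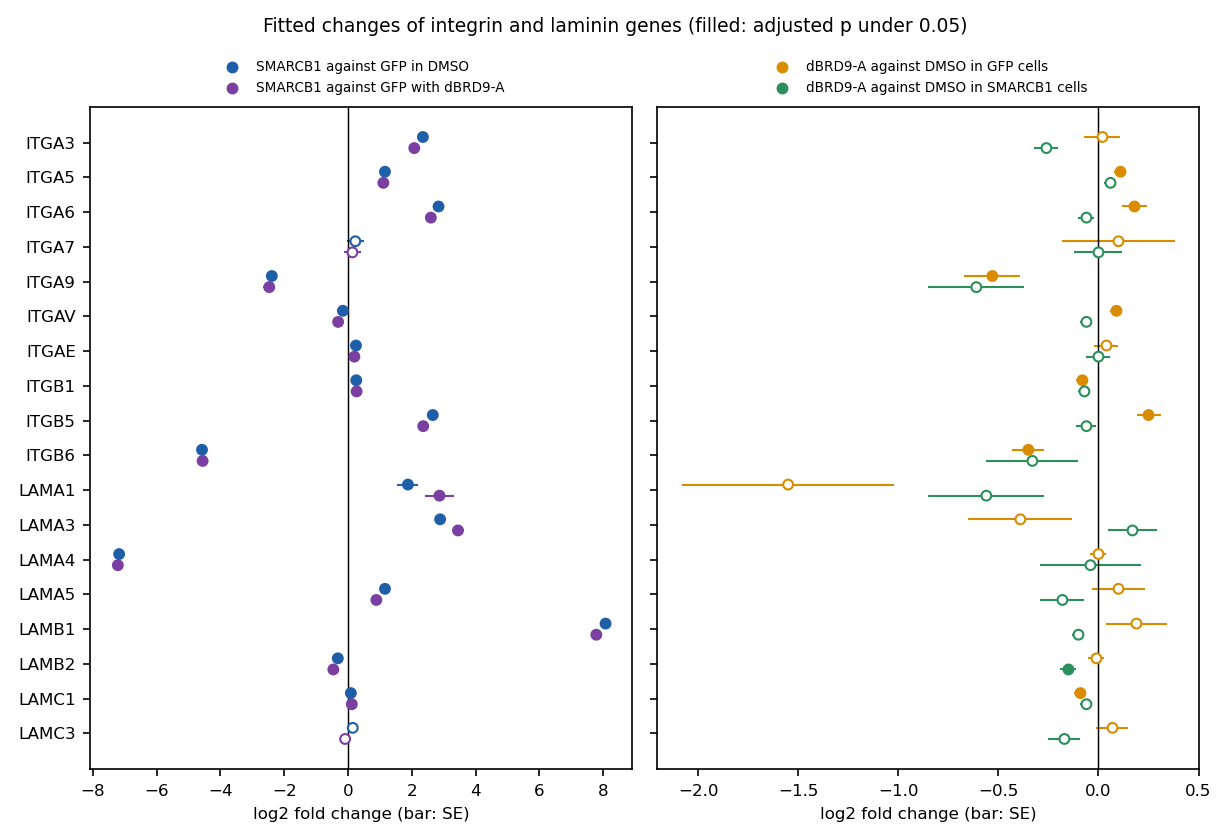
Log2 fold changes of 18 chains with their SE, for SMARCB1 against GFP on the left and dBRD9-A against DMSO on the right, with filled points at an adjusted p under 0.05. LAMA1 passed the filter only through the SMARCB1 libraries, so its SMARCB1 calls followed from how it entered and are no test. These 18 chains include LAMA1 and so are not the 18 that passed in both cell states. The horizontal scales differ: SMARCB1 changes run from -7.22 to 8.08, and called dBRD9-A changes from -0.53 to 0.25.

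With dBRD9-A present, SMARCB1 gave calls for the same 16 of the 18 genes that passed the filter in both states, 10 higher and 6 lower. Over all genes tested 63.3% were called, 33% as higher and 30.4% as lower, and over those that passed in both states 64.3%. The median size was 1.60 for the 18 genes, beside 0.24 for all genes that passed in both states. Under spike-in scaling, which moved the median of all genes by -0.32 here, the 18 split into 7 higher and 8 lower. In DMSO, where it moved that median by 0.17, the split was 11 higher and 5 lower. Shares of all genes called under spike-in scaling are not given here. The comparisons with DMSO and with dBRD9-A use different libraries on both sides.

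In GFP cells, dBRD9-A changed integrins and laminins by small amounts: 4 of the 25 tested genes were higher and 5 lower, none by 1 or more on the log2 scale. Over all genes, 15.9% were called in this comparison, 7.43% as higher and 8.47% as lower. The median size over the 18 genes that passed in both states was 0.10, beside 0.09 for all genes. The 4 higher genes were ITGB5 (0.25, SE 0.06, adjusted p = 0.0142 by edgeR), ITGA6 (0.18, SE 0.06, adjusted p = 0.0443), ITGA5 (0.11, SE 0.03, adjusted p = 0.0241) and ITGAV (0.09, SE 0.03, adjusted p = 0.0355). Among the 5 lower genes were ITGA9 (-0.53, SE 0.14, adjusted p = 0.0141), ITGB6 (-0.35, SE 0.08, adjusted p = 0.00762), LAMC1 (-0.09, SE 0.03, adjusted p = 0.0467) and ITGB1 (-0.08, SE 0.03, adjusted p = 0.0374). For each of the 9, the 3 dBRD9-A libraries lay wholly on one side of the 3 DMSO libraries. This also held for LAMA1 and LAMC3, which were not called, and the share of all genes was not counted.

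ITGB5 shows the size of these changes: 11.1, 11.3 and 10.1 CPM with DMSO became 12.3, 14.0 and 12.1 CPM with dBRD9-A. ITGA9 went from 2.72, 2.62 and 3.08 CPM to 2.06, 1.98 and 1.78 CPM. LAMB1 and LAMA4, which SMARCB1 moved most among the genes that passed in both states, gave 0.19 (SE 0.15, adjusted p = 0.516) and -0.00 (SE 0.04, adjusted p = 0.996). The scaling mattered here: spike-in scaling moved the median of all genes by 0.36 and called 13 genes higher and 1 lower, with ITGB1 at 0.28, LAMC1 at 0.27 and ITGB6 at 0.01. What share of all genes that scaling called is not given here. Without replicate 3 of GFP with dBRD9-A only 2 genes were called, without replicate 3 of GFP with DMSO 3, without replicate 2 of GFP with dBRD9-A 4, and without replicate 1 of either group 5.

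In SMARCB1 cells, dBRD9-A left 1 called gene among the 25, LAMB2. It fell from 93.5, 96.4 and 97.2 CPM to 83.6, 91.7 and 82.3 CPM, or by log2 -0.15 (SE 0.04, adjusted p = 0.0443 by edgeR). Over all genes 1.93% were called, 0.679% as higher and 1.25% as lower, and their median size was 0.06, beside 0.08 for the 18 genes. The LAMB2 call was lost in 9 of the 12 fits that left out 1 library and when the compared groups were fitted alone (adjusted p = 0.133). ITGA3 gave -0.26 (SE 0.06, adjusted p = 0.0516) and LAMB1 gave -0.10 (SE 0.03, adjusted p = 0.185).

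The test of the difference between the dBRD9-A responses of SMARCB1 and GFP cells called 2 genes, ITGB5 and ITGAV. ITGB5 rose by 0.25 in GFP cells and gave -0.06 (SE 0.05) in SMARCB1 cells, a difference of -0.30 (SE 0.08, adjusted p = 0.0391 by edgeR). ITGAV had 745, 787 and 792 CPM with DMSO and 810, 825 and 845 CPM with dBRD9-A in GFP cells. In SMARCB1 cells it had 683, 694 and 699 CPM with DMSO and 676, 648 and 672 CPM with dBRD9-A, a difference between the responses of -0.15 (SE 0.04, adjusted p = 0.0496). Over all genes 3.8% were called, 2.15% with a positive and 1.65% with a negative difference. The ITGAV call was lost in 11 of the 12 fits that left out 1 library and the ITGB5 call in 8. Spike-in scaling called 12 of the 25 genes, all negative, and moved the median of all genes by -0.49. The share of all genes called under that scaling is not given here, so these 12 have no background beside them.

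The genes that work with these chains were followed in 3 lists: the adhesion complex inside the cell, the matrix ligands and basement membrane proteins outside it, and other laminin receptors and integrin partners in the membrane. Only genes that passed the filter in both states are counted for SMARCB1 here. Of 33 such genes of the adhesion complex, 21 were higher and 6 lower with SMARCB1 in DMSO, and the median size was 0.35. Of 14 matrix genes, 8 were higher and 3 lower with a median of 0.56, and of 20 receptors and partners 16 were higher and 2 lower with a median of 0.37. The share called was 81.8%, 78.6% and 90.0%, beside 66.3% of all genes that passed in both states, with a median of 0.25. With dBRD9-A, SMARCB1 gave 22 higher and 4 lower, 9 and 3, and 15 and 1. A further 8 matrix genes (POSTN, COL4A2, COL4A6, COL15A1, COL17A1, FBLN2, NTN1 and VWF), FYN and UTRN passed only through the SMARCB1 libraries. Over all tested genes of each list, spike-in scaling moved the split with dBRD9-A from 23 higher and 5 lower, 17 and 3, and 16 and 1 to 12 and 17, 14 and 5, and 9 and 8. These counts include the genes that passed only through the SMARCB1 libraries. The scaling moved the median of all genes by -0.32 there and by 0.17 in DMSO. In DMSO the split moved from 22 and 7, 16 and 3, and 17 and 2 to 26 and 4, 18 and 2, and 19 and 1. No share of all genes called under spike-in scaling is given beside these counts.

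The adhesion complex changed by modest amounts. LIMS2, a LIM adaptor of the complex with ILK, had 1.62 to 2.25 CPM in GFP libraries and 6.11 to 6.88 CPM in SMARCB1 libraries with DMSO, for a log2 change of 1.77 (SE 0.11, adjusted p = 2.08e-10 by edgeR). ACTN4, which crosslinks actin, rose by 0.95 (SE 0.04), from 159 to 160 CPM to 301 to 314 CPM. VCL, which ties talin to actin, had 745 to 803 CPM in GFP libraries and 546 to 573 CPM in SMARCB1 libraries, for a log2 change of -0.45 (SE 0.04, adjusted p = 3.72e-09). PTK2B, a kinase related to FAK, gave -0.49 (SE 0.10).

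In the matrix list COL4A5 changed by nearly as much as LAMB1. COL4A5, a basement membrane collagen chain, had 0.20, 0.22 and 0.29 CPM in GFP libraries, from 9 to 17 counts, and 52.3, 53.4 and 55.8 CPM in SMARCB1 libraries with DMSO, for a log2 change of 7.81 (SE 0.09, adjusted p = 4.7e-21 by edgeR). COL4A6, its neighbour on the chromosome, had 3 to 4 counts in GFP libraries and 615 to 962 in SMARCB1 libraries, through which alone it passed the filter. SPP1, the integrin ligand osteopontin, fell from 11.4 to 12.3 CPM to 1.54 to 1.91 CPM (log2 fold change -2.74, SE 0.11). VTN, vitronectin, fell from 3.39 to 3.68 CPM to 1.31 to 1.44 CPM (log2 fold change -1.38, SE 0.13).

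Among the other laminin receptors and partners, DMD rose most of those that passed in both states. DMD, dystrophin, which links dystroglycan to actin, had 1.86, 2.21 and 2.59 CPM in GFP libraries and 398, 396 and 399 CPM in SMARCB1 libraries with DMSO, for a log2 change of 7.48 (SE 0.06, adjusted p = 4.7e-23 by edgeR). UTRN, its relative utrophin, went from 3 to 4 counts to 932 to 1680 counts and passed the filter only through the SMARCB1 libraries. BCAM, a receptor for LAMA5-containing laminins, fell from 17.8 to 19.6 CPM to 8.19 to 9.92 CPM (log2 fold change -1.03, SE 0.07), while LAMA5 itself rose. CD63, a tetraspanin, gave -0.09 (SE 0.03, adjusted p = 0.0147), and 0.08 under spike-in scaling.

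**Figure D5:**
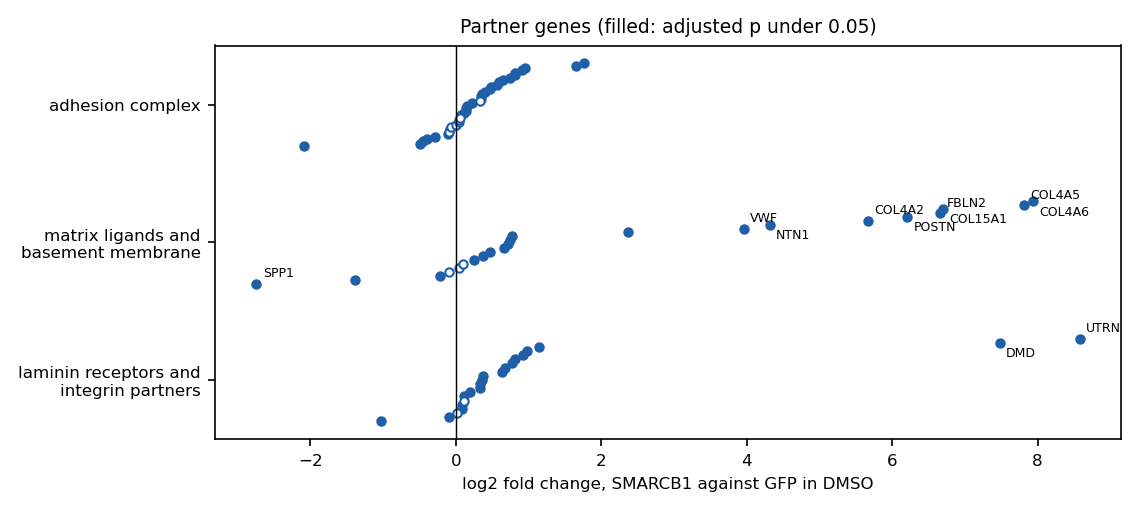
Log2 fold change of each tested gene of the 3 partner lists for SMARCB1 against GFP in DMSO, with filled points at an adjusted p under 0.05 and names where the size is over 2.5. Most adhesion complex genes lie between -0.49 and 0.95, while COL4A5, COL4A6, DMD and UTRN lie above 7. COL4A6, UTRN, FYN, POSTN, COL4A2, COL15A1, COL17A1, FBLN2, NTN1 and VWF passed the filter only through the SMARCB1 libraries. Their higher calls thus followed from how they entered.

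dBRD9-A moved these lists less. In GFP cells it gave 6 higher and 9 lower of 36 adhesion complex genes, 1 and 4 of 22 matrix genes, and 1 and 4 of 21 receptors and partners, or 41.7%, 22.7% and 23.8%, beside 15.9% of all genes. The largest change in each list, among called genes with a mean of at least 50 counts, was that of THBS1, thrombospondin, from 34.3, 38.7 and 38.6 CPM to 18.1, 19.4 and 19.4 CPM (log2 fold change -0.97, SE 0.06, adjusted p = 8.36e-09 by edgeR), of TNS2, a tensin, at -0.42 (SE 0.05), and of DAG1, dystroglycan, at -0.29 (SE 0.03). Spike-in scaling gave -0.61, -0.07 and 0.06 for these, and 27 higher and 0 lower in the adhesion complex, 10 and 1 in the matrix list and 18 and 0 among receptors and partners. In SMARCB1 cells 1 gene of each list was called, or 2.78%, 4.55% and 4.76% of them beside 1.93% of all genes, all lower: TNS3 at -0.20 (SE 0.03), SDC1, a syndecan, at -0.19 (SE 0.04) and NTN4, a netrin that binds laminin, at -0.15 (SE 0.03). THBS1 had 35.2 to 40.3 CPM in SMARCB1 libraries with DMSO and 36.9 to 41.0 CPM with dBRD9-A. The interaction called 2 higher and 2 lower, 1 and 1, and 3 and 1 genes of the 3 lists, or 11.1%, 9.09% and 19.0% beside 3.8% of all genes, and 0 and 31, 1 and 14, and 0 and 21 under spike-in scaling. All shares of all genes in this paragraph are for the main scaling, and those under spike-in scaling are not given here.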

How the data were processed

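RNA was sequenced from 12 G401 libraries, with the TruSeq Stranded mRNA kit, which selects poly(A) RNA, per the labels' protocols. The deposited tables hold expected counts per gene, which the authors made with STAR and RSEM 1.3.1 on GRCh37 (hg19), per the submitters' processing notes. The annotation, filters and use of strand are not given in the sources used here. Expected counts share reads of similar genes by estimation, and 2.57% of values were not whole. They were rounded. The 6 columns repeated between tables were identical. Symbols were matched for 51996 of 57820 identifiers. Lengths and overlaps were computed from the coordinates of GENCODE 29, which is on GRCh38, while the counts were made on GRCh37.

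ERCC spike-in counts (40 identifiers, 0.9634% to 1.302% of a library) entered neither library sizes nor tests. How the spike-ins were added is not given in the sources used here. Libraries held 34.97 to 58.54 megacounts. The counting floor of 3 counts equals 0.0513 to 0.0858 CPM and covers counting error only. Tests used edgeR 4.0.16 in R 4.3.3 with filterByExpr (minimum count 10), TMM scaling, 1 coefficient per group over all 12 libraries, and Benjamini-Hochberg adjustment over 15750 genes. The script was tested on simulated data. Alternatives were DESeq2 1.42.0 size factors and its Wald test, spike-in scaling, no filter, a replicate block, the compared groups alone, a minimum size of 1 on the log2 scale, leaving out each library, and another transcript length.

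The genes and lists were chosen with earlier results of these data known. Full values are given for family members with a mean of at least 50 counts that were called with a log2 fold change of 1 or more in size for SMARCB1 in DMSO, or called in a dBRD9-A comparison or the interaction. ITGAV, ITGB1, LAMB2 and LAMC1 entered by the dBRD9-A comparisons, and the other members are given by counts or levels. ITGB3 met the rule but passed the filter only through SMARCB1 libraries, so it is given by counts. Fold changes of ITGAE, ITGA7 and LAMC3 are outside the rule and were added after their values were seen. 1 gene of the set enters counts and sums but is not reported here. In each partner list the largest 2 rises and 2 falls for SMARCB1 in DMSO, and the largest change with dBRD9-A, are named, among called genes with a mean of at least 50 counts.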

Additional observations from a re-analysis of the deposited data

Results flagged for a closer look

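The dBRD9-A response of 2 chains differed between SMARCB1 and GFP cells by the test of the difference itself. For ITGB5 the difference between the responses was -0.30 in log2 units (SE 0.08, adjusted p = 0.0391 by edgeR), with 0.25 in GFP cells and -0.06 in SMARCB1 cells. For ITGAV it was -0.15 (SE 0.04, adjusted p = 0.0496), with 0.09 in GFP cells and -0.06 in SMARCB1 cells. The ITGB5 call was lost in 8 and the ITGAV call in 11 of the 12 fits that left out 1 library. Under spike-in scaling, which moved the median of all genes by -0.49 in this comparison, the differences were -0.79 and -0.65.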

How the results depend on the processing

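Over 46 calls of single genes and 826 refits, the calls for SMARCB1 in DMSO kept their direction and side of the threshold in 304, lost the call in 1 and reversed in 1, and those for SMARCB1 with dBRD9-A kept them in 303 and reversed in 3. The calls for dBRD9-A in GFP cells kept them in 112, lost the call in 47 and reversed in 3. Those for dBRD9-A in SMARCB1 cells kept them in 8 and lost them in 10, and the interaction kept them in 14 and lost them in 20. The SMARCB1 counts include ITGB3, which kept its call in 18 refits in DMSO and in 18 with dBRD9-A. ITGB3 passed the filter only through the SMARCB1 libraries, so its kept calls followed from how it entered and are no support. Reversals came from spike-in scaling: ITGAV at 0 for SMARCB1 in DMSO, ITGAE at -0.12, ITGB1 at -0.06 and LAMC1 at -0.21 for SMARCB1 with dBRD9-A, and ITGB1 at 0.28, ITGB6 at 0.01 and LAMC1 at 0.27 for dBRD9-A in GFP cells. Of these, ITGAV at 0 (adjusted p = 0.962 by edgeR) and ITGB6 at 0.01 were near no change, so they lost the difference rather than turned it. Spike-in scaling shifts all genes by construction, and which scaling is right was not tested. Counts called under it have no share of all genes beside them. Counts of genes called for dBRD9-A in GFP cells (9), dBRD9-A in SMARCB1 cells (1) and the interaction (2) moved to 14, 5 and 12 under spike-in scaling, to 0 in each with a minimum size of 1 on the log2 scale, and to 2 to 9, 0 to 4 and 0 to 6 when 1 library was left out. Without a filter, dBRD9-A in SMARCB1 cells called 3 and the interaction 4. DESeq2 size factors and the DESeq2 Wald test called 2 in SMARCB1 cells, and the compared groups alone 0. The cause was not tested. The replicate block called 7 in GFP cells, 2 in SMARCB1 cells and 1 in the interaction. Same-numbered libraries did not deviate together (correlations -0.056 to 0.061, median -0.002, over 18 pairs), so the numbers were not taken as pairs. Levels per kilobase moved with the longest transcript as length, and the leading laminin alpha and beta chains were the same. ITGAE and ITGB6 changed order in GFP libraries with DMSO. At this depth, the 13 chains under the filter could not be compared.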
